A study of Mus musculus with 4 samples.

Results

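The genes described here are 9 that serve the primary cilium or the secretion of bile duct epithelium: Pkhd1, Pkd1, Pkd2, Bicc1, Cftr, Slc4a2, Aqp1, Sctr and Slc10a2. They were taken by symbol from the 32285 mouse genes counted, and each symbol matched 1 row. Their unique molecular identifiers (UMIs, each standing for 1 captured RNA molecule) were summed per library over nuclei that resemble cholangiocytes, the epithelial cells of bile ducts, and over the other classes of nuclei. The libraries came from single-nucleus RNA sequencing (droplet method, poly-A capture) of fresh-frozen livers. All donors were male mice, 10 to 11 weeks old when they went on DDC, a toxic compound in the feed after which bile ductules multiply. They stayed on it for 4 weeks. The groups were WT (2 libraries) and CKO (2 libraries), a knockout of Rbpj, the DNA-binding partner of Notch, restricted to hepatic progenitor cells. The labels name neither the Cre driver nor the deleted exons, and they do not say whether replicates are separate animals, so a p measures the spread between these libraries. No group without DDC was analysed here.

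Cholangiocytes carry a primary cilium on their apical side, a sensor of bile flow and composition. Fibrocystin (Pkhd1) and the polycystins (Pkd1, Pkd2) act at that cilium, and Bicc1 is an RNA-binding protein of the same cyst-forming pathway. Defects in these genes give cysts of kidney and bile ducts. In secretion, the hormone secretin binds its receptor (Sctr), cAMP rises, the chloride channel Cftr opens, and the chloride-bicarbonate exchanger Slc4a2 passes bicarbonate into bile while water follows through aquaporins such as Aqp1. Slc10a2 is the sodium-dependent transporter that takes bile acids back up from the duct lumen.

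Libraries held 12261329 to 45620141 UMIs in 5184 to 16000 barcodes, with a median of 1722 to 2267 UMIs per barcode, and 333 barcodes occurred in more than 1 library. Below, a group of 4 values is in the order WT replicate 1, WT replicate 2, CKO replicate 1, CKO replicate 2. The cholangiocyte-like class, named by Thsd4, Pdgfd, Glis3, Cdh6 and Ctnnd2, held 1414, 305, 498 and 44 nuclei, so values of CKO replicate 2 rest on 92780 UMIs in all. Each of the 5 naming genes stood at 13.7 times or more the level in the 10% of barcodes with the fewest UMIs, which is used here as the estimate of free RNA in the droplets. No deposited barcode had fewer than 1817, 1465, 1823 and 1543 UMIs, so the barcodes behind this estimate may hold nuclei. Of the further biliary markers, Onecut1, Cdh1 and Epcam were above that estimate in 4 of 4 libraries, Sox9 was weakly above it (1.20 to 3.44 times), Spp1 stood at it (0.792 to 1.14 times), and Krt7 and Krt19 had 0 UMIs in CKO replicate 2. Rbpj itself had 77.7, 69.5, 72.6 and 43.1 CPM in these nuclei (343, 46, 107 and 4 UMIs). RNA of a deleted allele may still give 3′ counts, so these values do not check the knockout. The added sequence eGFPcre had 54, 0, 5 and 4 UMIs over whole libraries, and the labels do not say which mice carry it. The hepatocyte-like nuclei of each library lay mostly in a cluster of their own. The macrophage-like nuclei of both WT libraries lay mostly in 1 shared cluster, and those of each CKO library mostly in another.

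The first question is where in the injured liver these genes were transcribed. Of the cilium genes, Pkhd1 and Bicc1 were highest in cholangiocyte-like nuclei in 4 of 4 libraries, Pkd2 stood as high in mesenchymal-like as in cholangiocyte-like nuclei, and Pkd1 was highest in mesenchymal-like nuclei. Levels are given as CPM, the UMIs of a gene per 1000000 UMIs of the class in that library, over 5 classes with at least 20 nuclei in each library. A class was named from genes other than the 9, and the 9 were kept out of the clustering. The class differences are nonetheless given as description, without a test.

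Pkhd1 (ENSMUSG00000043760, chromosome 1, 20057779 to 20618064, minus strand, GRCm38) encodes fibrocystin, a large single-pass membrane protein of the cilium. Its level in cholangiocyte-like nuclei was 3042, 2625, 2087 and 2166 CPM, from 13427, 1738, 3074 and 201 UMIs. The highest value of any other class was 276 CPM, in hepatocyte-like nuclei of WT replicate 1, so every cholangiocyte-like value lay above every value elsewhere. Within a library the cholangiocyte-like level was 11.0 to 24.0 times the hepatocyte-like one, and 15.1 to 38.1 times the free RNA estimate. Hepatocyte-like nuclei held 276, 146, 118 and 90.2 CPM, which was 1.37 to 1.76 times the free RNA estimate of their own library. In the other 3 classes the means over libraries were below the hepatocyte-like mean of 157 CPM.

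Bicc1 (ENSMUSG00000014329, chromosome 10, 70922832 to 71159700, minus strand) encodes an RNA-binding protein that controls translation and stability of target mRNAs. It stood at 2051, 1864, 1649 and 1541 CPM in cholangiocyte-like nuclei. Mesenchymal-like nuclei followed with 830, 681, 619 and 274 CPM, the highest of which lay well under the lowest cholangiocyte-like value, and the ratio within a library was 2.47 to 5.63. Hepatocyte-, endothelial- and macrophage-like nuclei were all under these, with at most 209 CPM. Per kilobase of annotated gene, Bicc1 had the highest level of the 9 in cholangiocyte-like nuclei (a mean of 7.50 CPM per kb), ahead of Pkhd1 (4.43 CPM per kb).

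Pkd2 (ENSMUSG00000034462, chromosome 5, 104459450 to 104505819, plus strand) encodes polycystin-2, the cation channel that pairs with polycystin-1. Cholangiocyte-like nuclei held 108, 99.7, 103 and 86.2 CPM and mesenchymal-like nuclei 103, 86.3, 115 and 64.1 CPM. These ranges overlap, and the cholangiocyte-like value was the higher one in 3 of 4 libraries. Endothelial-, macrophage- and hepatocyte-like nuclei followed with means of 49.5, 32.1 and 30.4 CPM. Pkd1 (ENSMUSG00000032855, chromosome 17, 24549834 to 24596508, plus strand) encodes polycystin-1, a receptor-like protein with a large extracellular part. It had 101, 51.3, 60.7 and 34.95 CPM in mesenchymal-like and 44.4, 36.3, 39.4 and 32.3 CPM in cholangiocyte-like nuclei. The mesenchymal-like value was the higher one in each of the 4 libraries, by 1.08 to 2.28 times, although the ranges overlap. Pkd1 and Pkd2 were both above the free RNA estimate in cholangiocyte-like nuclei, by 2.78 to 4.70 and 2.80 to 8.35 times. Tsc2 overlaps Pkd1 on the other strand, and no source used here says whether counting was by strand.

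**Figure D1:**
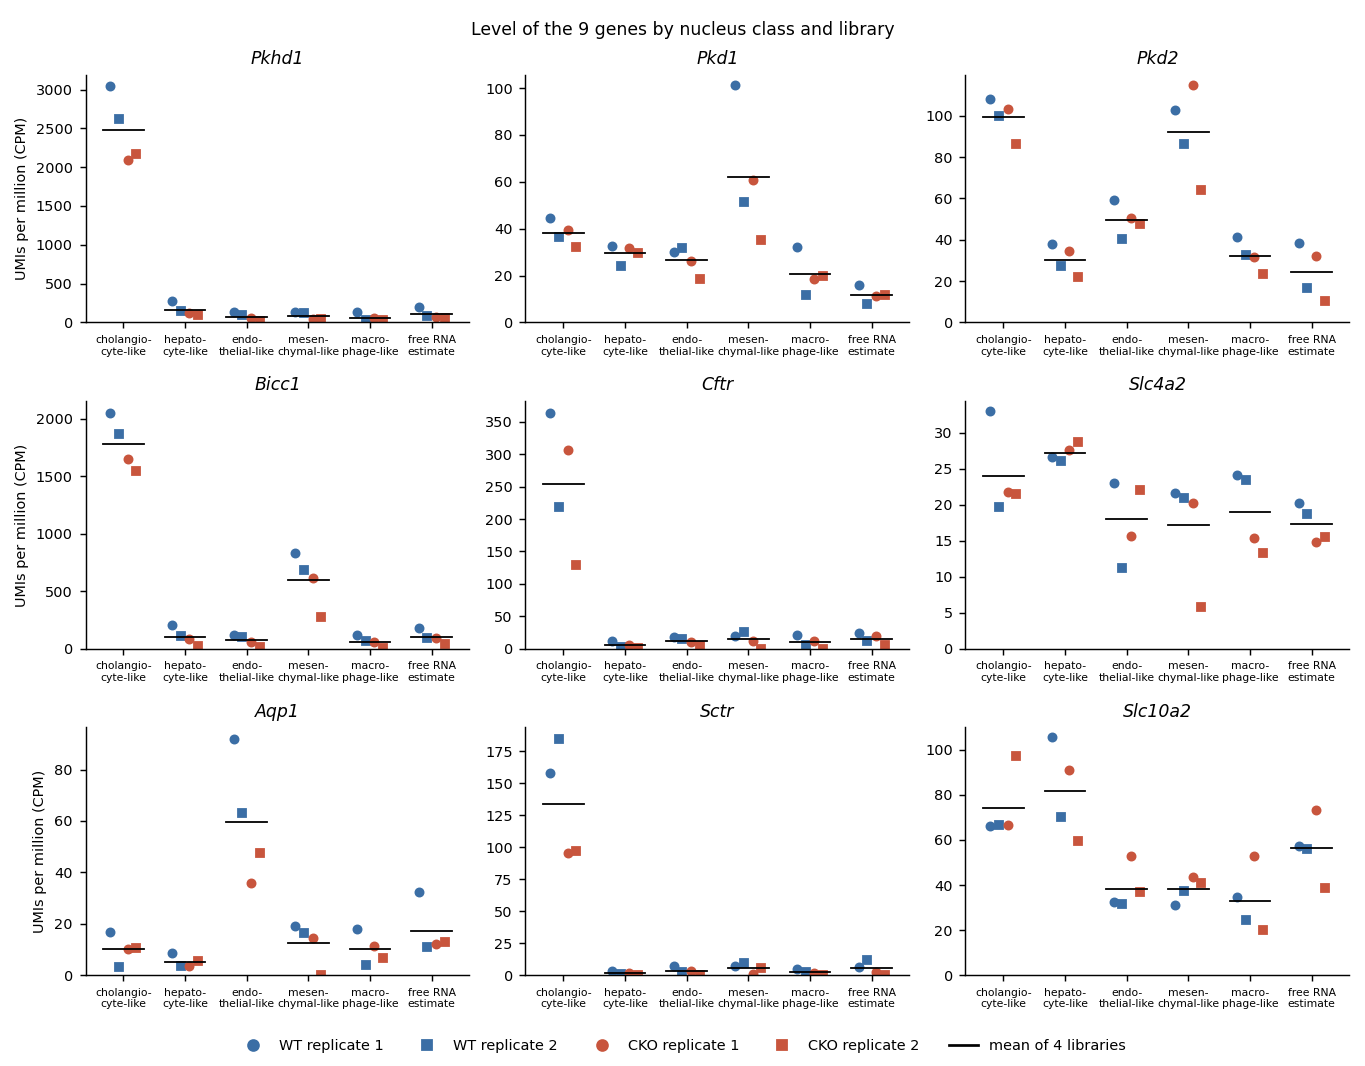
CPM of each gene (vertical axis, from 0, scale set per gene) in 5 classes of nuclei and in the free RNA estimate (horizontal axis). Each point is 1 library (blue WT, red CKO, circle replicate 1, square replicate 2) and each black line the mean of the 4. Pkhd1, Bicc1, Cftr and Sctr stand apart in cholangiocyte-like nuclei, Aqp1 stands apart in endothelial-like nuclei, Slc4a2 overlaps between classes, and Slc10a2 overlaps between cholangiocyte- and hepatocyte-like nuclei, which both lie above the other 3 classes.

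Of the secretion genes, Sctr and Cftr were highest in cholangiocyte-like nuclei in 4 of 4 libraries, and Slc4a2, Slc10a2 and Aqp1 were not. Sctr (ENSMUSG00000026387, chromosome 1, 120006894 to 120063536, plus strand) is the G protein-coupled receptor that starts secretin-driven bile flow. It had 158, 184, 95.1 and 97.0 CPM, from 698, 122, 140 and 9 UMIs. No other class exceeded 9.33 CPM in any library, and the mean in the next class, mesenchymal-like nuclei, was 5.92 CPM, which is 22.6 times lower. Cftr (ENSMUSG00000041301, chromosome 6, 18170687 to 18322768, plus strand), the cAMP-gated chloride channel, had 364, 219, 306 and 129 CPM, from 1605, 145, 451 and 12 UMIs. Its highest value elsewhere was 25.7 CPM, and the mesenchymal-like mean, the next in order, was 14.3 CPM, or 17.8 times lower. In hepatocyte-like nuclei Cftr was under the free RNA estimate in 4 of 4 libraries (0.211 to 0.470 times it).

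Slc4a2 (ENSMUSG00000028962, chromosome 5, 24423837 to 24440950, plus strand), the exchanger that moves bicarbonate out of the cell, had 33.1, 19.6, 21.7 and 21.6 CPM in cholangiocyte-like nuclei. Hepatocyte-like nuclei had 26.6, 26.1, 27.7 and 28.8 CPM. The class means ran from 17.2 to 27.3 CPM and overlapped, and the cholangiocyte-like level was 1.05 to 1.63 times the free RNA estimate. Fastk overlaps this gene on the other strand. Slc10a2 (ENSMUSG00000023073, chromosome 8, 5083219 to 5105351, minus strand) had 66.2, 66.5, 66.5 and 97.0 CPM in cholangiocyte-like and 106, 70.0, 91.2 and 59.7 CPM in hepatocyte-like nuclei. The hepatocyte-like value was the higher one in 3 of 4 libraries and lay above the free RNA estimate in all 4 (1.24 to 1.84 times), whereas the cholangiocyte-like value did so in 3 (0.907 to 2.50 times). Endothelial-, mesenchymal- and macrophage-like nuclei had 31.5 to 52.8, 31.2 to 43.4 and 19.9 to 52.95 CPM, below every cholangiocyte- and hepatocyte-like value, and 0.440 to 1.05 times the free RNA estimate.

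Aqp1 (ENSMUSG00000004655, chromosome 6, 55336432 to 55348555, plus strand), a water channel of bile ducts and also of vascular endothelium, was highest in endothelial-like nuclei with 91.8, 63.1, 35.7 and 47.7 CPM. Cholangiocyte-like nuclei had 16.8, 3.02, 10.2 and 10.8 CPM, from 74, 2, 15 and 1 UMIs. That was below the free RNA estimate in each library (0.274 to 0.842 times it), so no Aqp1 transcript of these nuclei could be told from that estimate at this depth. The endothelial-like values were 2.84 to 5.73 times the estimate.

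A second description asks what part of each gene's UMIs lay in these nuclei. Cholangiocyte-like nuclei gave 11.2%, 5.03%, 4.45% and 0.790% of all UMIs in the barcodes kept. They gave 79.4%, 79.2%, 69.7% and 81.8% of the Sctr UMIs, the last from 9 of 11 UMIs with a 95% Clopper-Pearson interval of 48.2 to 97.7%. For Pkhd1 the share was 66.3%, 59.4%, 58.5% and 22.6%, for Cftr 69.2%, 50.0%, 51.8% and 32.4%, and for Bicc1 54.9%, 46.0%, 44.5% and 27.5%. CKO replicate 2, with the fewest of these nuclei, had the lowest share for those 3 genes. For Aqp1 and Slc4a2 the median over libraries was 2.50% and 5.35%. In CKO replicate 2, hepatocyte-like nuclei held 57.1% of the Pkhd1 UMIs and 47.95% of all UMIs. Unnamed barcodes held 13.2 to 38.3% of the Cftr UMIs and 30.6 to 58.5% of the Aqp1 UMIs. They gave 28.5 to 53.6% of all UMIs. Intervals cover counting error only.

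Detection per nucleus was compared after thinning each nucleus to 2000 UMIs, which left 1356, 149, 441 and 22 cholangiocyte-like nuclei and put aside 58, 156, 57 and 22 shallower ones. Pkhd1 had at least 1 UMI in 97.3%, 96.0%, 93.0% and 86.4% of them, and Bicc1 in 95.2%, 91.3%, 92.5% and 100%. Cftr was seen in 44.0%, 30.9%, 33.3% and 9.09% and Sctr in 22.4%, 23.5%, 14.5% and 9.09%, where the last value of each is 2 of 22 nuclei (95% interval 1.12 to 29.2%). Hepatocyte-like nuclei, at the same thinned depth, were the comparison: 16.4 to 36.3% for Pkhd1, 3.78 to 27.5% for Bicc1, at most 2.67% for Cftr and at most 0.611% for Sctr. Pkd2 was seen in 18.9%, 15.4%, 16.6% and 27.3% of cholangiocyte-like nuclei, against 4.71 to 7.72% of hepatocyte-like ones. For Slc4a2 the shares were 4.55 to 5.68% against 4.82 to 6.25%, and for Slc10a2 9.09 to 12.8% against 12.5 to 18.3%, so neither gene was seen in clearly more nuclei of either class. Since neither class is known to lack these 2 genes, the hepatocyte-like shares are not a pure background for them. The same limit holds for Pkhd1, which in hepatocyte-like nuclei stood at 1.37 to 1.76 times the free RNA estimate. Before thinning the median depth was 2887, 1978, 2665 and 1995 UMIs in cholangiocyte-like and 3013 to 5296 UMIs in hepatocyte-like nuclei. Without thinning, Pkhd1 had a UMI in 98.0% of the cholangiocyte-like nuclei of WT replicate 1. Of the 9 genes, a cholangiocyte-like nucleus held a UMI of 3.07, 2.84, 2.76 and 2.50 on average after thinning, and a hepatocyte-like nucleus of 1.07, 0.706, 0.691 and 0.492.

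**Figure D2:**
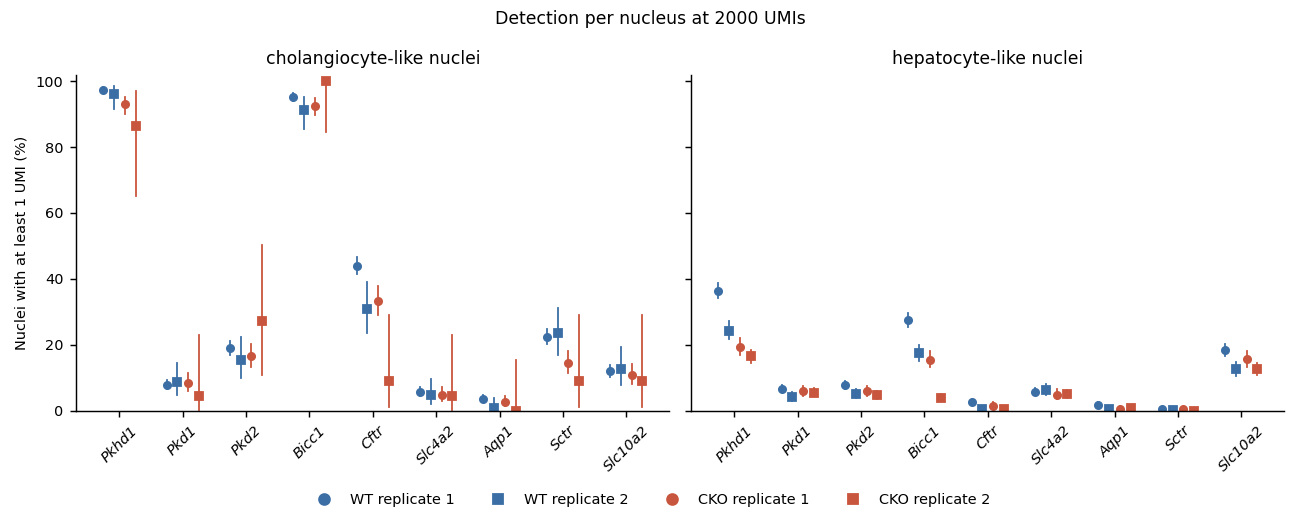
Percent of nuclei with at least 1 UMI of each gene after thinning to 2000 UMIs (vertical axis), in cholangiocyte-like (left) and hepatocyte-like nuclei (right). Points are libraries and bars 95% Clopper-Pearson intervals. Pkhd1 and Bicc1 reach 86.4 to 97.3% and 91.3 to 100% on the left, and the wide bars belong to the 22 nuclei of CKO replicate 2.

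The cholangiocyte-like class was made of a larger and a smaller cluster, and Cftr and Sctr differed most between them. Cftr averaged 314 ± 107 CPM in the larger and 38.0 ± 32.5 CPM in the smaller cluster (SD, n = 4), 8.27 times apart, and Sctr 162 ± 36.3 against 38.6 ± 41.2 CPM, 4.19 times apart. Both were higher in the larger cluster in 4 of 4 libraries. By library, Cftr stood at 419, 258, 387 and 192 CPM in the larger and at 76.7, 27.1, 48.3 and 0 CPM in the smaller cluster. The smaller cluster of CKO replicate 2 had 0 UMIs of Cftr and of Sctr among 30353, which allows up to 98.8 CPM. Sctr stood at 179, 203, 121 and 144 CPM in the larger and at 53.0, 90.2, 11.4 and 0 CPM in the smaller cluster.

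The cilium genes were closer between the clusters. Pkhd1 averaged 2699 ± 396 and 1811 ± 536 CPM, 1.49 times apart and higher in the larger cluster in 4 of 4 libraries. Bicc1 averaged 1782 ± 187 and 1844 ± 462 CPM and Pkd2 99.3 ± 3.90 and 104 ± 26.5 CPM, differences of means smaller than the SD in the smaller cluster. Within libraries both were higher in the larger cluster only in CKO replicate 2, where the smaller cluster held 36 and 2 UMIs of them. Pkd1 (35.7 ± 4.44 and 48.5 ± 11.2 CPM) and Slc10a2 (61.4 ± 12.8 and 121 ± 22.0 CPM) were higher in the smaller cluster in 4 of 4 libraries. There Slc10a2 was 1.28 to 3.40 times the free RNA estimate. In CKO replicate 2 the order of the larger and smaller cluster rested on 2 and 1 UMIs of Pkd1 (32.04 and 32.95 CPM) and on 5 and 4 UMIs of Slc10a2. Slc4a2 (26.7 ± 6.49 and 18.5 ± 14.8 CPM) and Aqp1 (11.0 ± 7.16 and 9.29 ± 6.64 CPM) were higher in the larger cluster in 3 and in 2 of 4 libraries. Biliary markers were not uniform either: Cdh1 and Epcam were higher in the larger cluster in 4 of 4 libraries, and Onecut1 in the smaller. Each cluster was also ranked against all other kept barcodes, not against the other cluster. Besides Cftr, Sctr and Pkhd1, the larger cluster was then led by Thsd4, Pdgfd, Asz1 and Prdm16, and the smaller by Dab1, Kcnip4, Gm17268 and Egflam. The smaller cluster made up 12.4% (175 of 1414), 12.8% (39 of 305), 20.3% (101 of 498) and 29.55% (13 of 44) of the nuclei. Both CKO shares lay above both WT shares, and with 2 libraries per genotype 0.333 is the smallest p an exact two-sided permutation test allows.

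**Figure D3:**
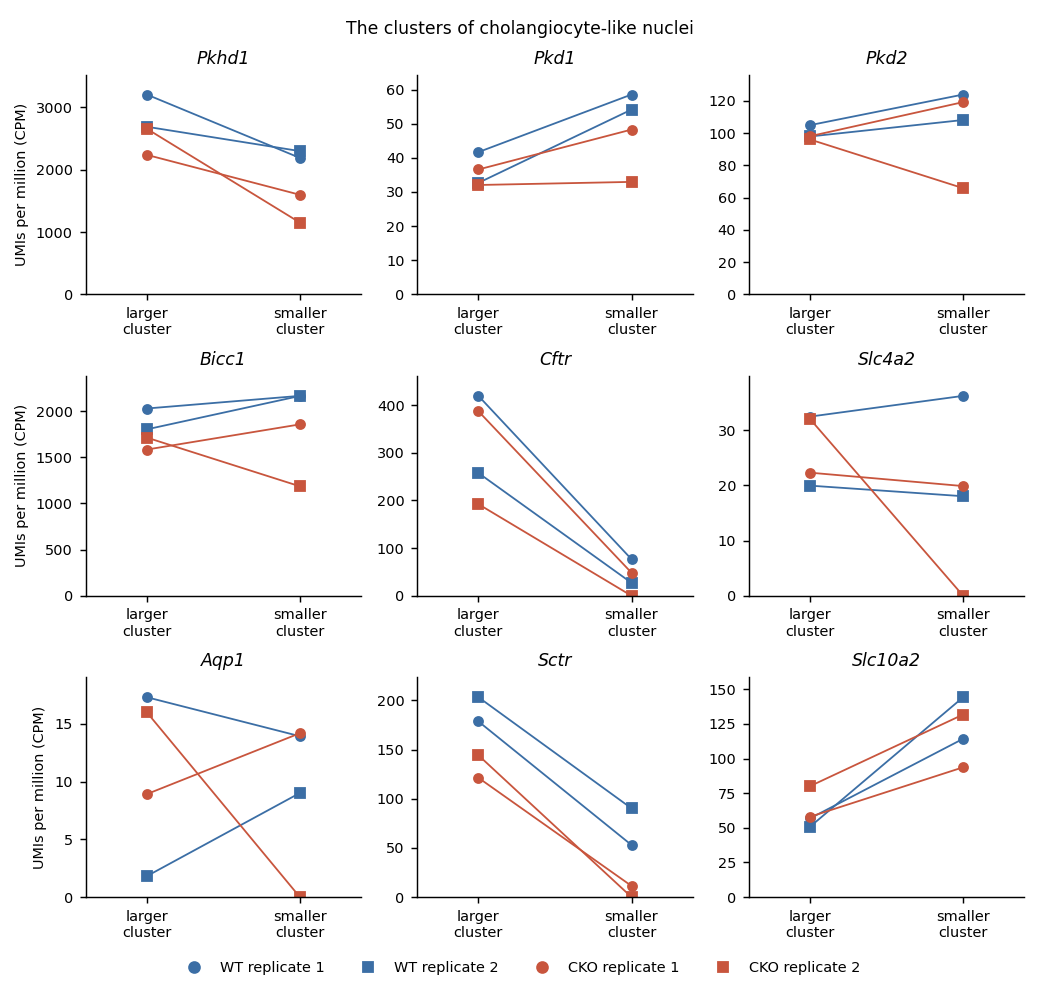
CPM of each gene (vertical axis, from 0) in the larger and the smaller cluster of cholangiocyte-like nuclei, with a line joining the values of each library. Lines for Cftr, Sctr and Pkhd1 fall to the right and those for Slc10a2 and Pkd1 rise in 4 of 4 libraries. In CKO replicate 2 the rise of Pkd1 is from 32.04 to 32.95 CPM, on 2 and 1 UMIs.

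Other cilium and secretion genes were followed in a list of 64 primary cilium genes and a list of 41 bile duct secretion genes. Both were written from general knowledge and without the 9 genes, but with earlier results of these data known. Their shares are therefore description, not an independent test. Among the 60 cilium genes with at least 100 UMIs, 41 (68.3%) had their highest class mean in cholangiocyte-like nuclei, and 17 (28.3%) were at least 2-fold above every other class. Of all 14155 genes with that many UMIs, 22.1% and 4.52% did so. The UMIs were counted over the 5 classes together, for the list and for all genes. Tctn2, Tmem231 and Anks6 (164, 122 and 145 UMIs), each among the 17, reached 100 only through their cholangiocyte-like UMIs. Without CKO replicate 2, left out after the data were seen, the counts were 41 and 12, beside 20.9% and 4.10% of all genes. Of 23 genes of intraflagellar transport and its motors, 16 were highest in cholangiocyte-like nuclei and 7 elsewhere. The higher ones included Ift57 (30.8 CPM, 3.34 times the next class) and Wdr19 (20.2 CPM, 3.22 times, and 1.996 times without CKO replicate 2). Dync2li1 (10.2 CPM) stood at 3.06 times, at 2.19 times without WT replicate 2 and at 5.39 times without WT replicate 1. Ift80 (43.3 CPM) stood at 2.37 times, and at 1.69 times without CKO replicate 2. The 7 that were highest elsewhere were Ift20 (0.684 times the highest other class), Ift27, Ift52, Ift140, Ift172, Traf3ip1 (0.680 times) and Kif3b (0.773 times). The transition zone, the gate at the ciliary base, was represented by Tctn1 (16.5 CPM, 3.85 times). Of 5 genes of the BBSome, the cargo coat of the cilium, 4 were highest in cholangiocyte-like nuclei, led by Bbs2 (18.5 CPM, 3.63 times), and Bbs7 was highest in hepatocyte-like nuclei (0.682 times that class). Without CKO replicate 2, which had 43.1 CPM of Bbs2, the Bbs2 mean was 10.3 CPM (2.25 times), and 3 of the 5 were highest, as Bbs9 stood at 0.958 in place of 1.07 times. Dzip1l and Glis2, whose human counterparts are genes of cystic kidney disease, stood at 54.7 CPM (2.90 times) and 57.6 CPM (2.28 times). Without WT replicate 2 the ratio of Glis2 was 1.91. The gene that went the other way furthest was Ahi1, with 16.5 CPM against 48.1 CPM in mesenchymal-like nuclei, and the polycystic liver genes Sec63, Prkcsh and Ganab, which act in the endoplasmic reticulum, were highest in other classes.

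Among 36 secretion genes with at least 100 UMIs, 15 (41.7%) were highest in cholangiocyte-like nuclei and 8 (22.2%) at least 2-fold above every other class. Ion channels and carriers led: the potassium channels Kcnma1 (116 CPM, 18.4 times the next class, 10.3 times without CKO replicate 2 and 40.4 times without WT replicate 2) and Kcnn4 (39.8 CPM, 4.57 times), the sodium-glucose carrier Slc5a1 (66.9 CPM, 16.3 times) and the chloride loader Slc12a2 (107 CPM, 3.45 times). The muscarinic receptor Chrm3 (394 CPM, 2.59 times), Car2, the carbonic anhydrase that makes bicarbonate (26.5 CPM, 2.29 times), and Itpr3, the calcium release channel (26.3 CPM, 2.06 times), followed. These 3 did not hold a ratio of 2 without each library. Chrm3 stood at 1.85 times without CKO replicate 2, and Car2 and Itpr3 at 1.94 and 1.76 times without WT replicate 1. Chrm3 was uneven between libraries, at 421, 523, 51.6 and 582 CPM. The calcium-gated chloride channel Ano1 was as high in mesenchymal-like (104 CPM) as in cholangiocyte-like nuclei (111 CPM). Vipr1, a receptor for vasoactive intestinal peptide, was highest in mesenchymal-like nuclei (140 against 3.53 CPM in cholangiocyte-like ones). The median ratio to the next class was 1.44 for the cilium list, 0.769 for the secretion list and 0.726 for all genes.

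**Figure D4:**
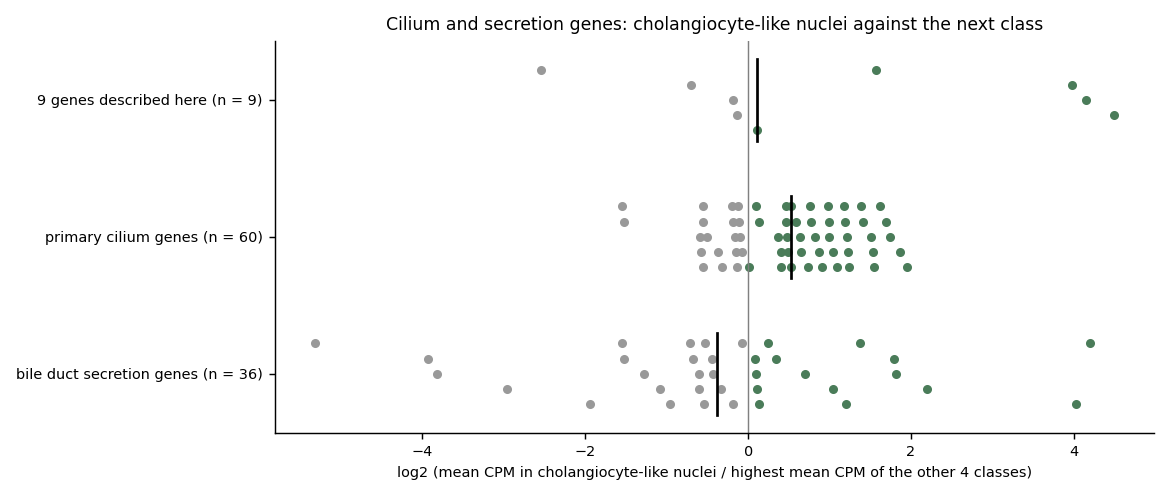
Log2 ratio of the mean level in cholangiocyte-like nuclei to the highest mean of the other 4 classes (horizontal axis), 1 point per gene with at least 100 UMIs, green where cholangiocyte-like nuclei are highest, and black lines for medians. Of the cilium genes 41 of 60 lie right of 0, and of the secretion genes 15 of 36.

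The second comparison asks whether these genes differed between CKO and WT within cholangiocyte-like nuclei. None of the 9 passed edgeR's quasi-likelihood test, adjusted by Benjamini-Hochberg over the 10411 genes tested, and neither did any other gene (0%). At an unadjusted p under 0.05 there were 545 genes, and DESeq2 called 0. All 9 passed the filter on low counts. Their log2 changes, CKO minus WT, were negative for 8 and positive for Slc10a2, with a median of -0.24, where the median of all tested genes was -0.02. For 3 of the 9 both CKO libraries were below both WT libraries in CPM, which held for 21.2% of all tested genes, and for 1 both were above, which held for 9.31%.

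Sctr had the smallest p of the 9. Its 95.1 and 97.0 CPM in the CKO libraries lay below the 158 and 184 CPM of the WT libraries, means of 96.0 ± 1.38 and 171 ± 18.5 CPM (SD, n = 2 each). The edgeR log2 change was -0.79 (SE 0.28), with an unadjusted p of 0.0183 and an adjusted p of 0.83. It stayed negative without each library in turn (-1.03 to -0.56). In the larger cluster alone, an alternative added after the data were seen, it was -0.55 (SE 0.30). The smaller cluster, which is lower in Sctr, took a larger share of the CKO nuclei, and its part in the change was measured only by that alternative.

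Pkhd1 averaged 2834 ± 295 CPM in WT and 2127 ± 56.1 CPM in CKO nuclei, a log2 change of -0.36 (SE 0.34, adjusted p = 0.9999 by edgeR), and Bicc1 1958 ± 132 and 1595 ± 76.2 CPM, a change of -0.24 (SE 0.33). Groups did not overlap in CPM for either gene. Both changes kept their sign without each library in turn. In the larger cluster alone they were -0.23 and -0.18, and Pkhd1 stood there at 3208 and 2691 CPM in WT and at 2240 and 2659 CPM in CKO, where the nearest values of the 2 groups were close.

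Cftr was higher in replicate 1 than in replicate 2 of either genotype (364 and 219 CPM in WT, 306 and 129 CPM in CKO), and the groups overlapped. Its log2 change of -0.20 (SE 0.35) was -1.08 without CKO replicate 1 and 0.11 without CKO replicate 2, so its direction rested on which CKO library was used. In the larger cluster it was -0.02 (SE 0.35). The polycystins showed the smallest changes, with -0.03 (SE 0.27) for Pkd1 and -0.01 (SE 0.24) for Pkd2. Slc4a2 (-0.33, SE 0.35), Aqp1 (-0.26, SE 0.61) and Slc10a2 (0.17, SE 0.28) also stood within about 1 SE of 0. For Slc10a2 the CKO libraries were above the WT ones only by 66.53 against 66.46 CPM at the nearest pair.

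**Figure D5:**
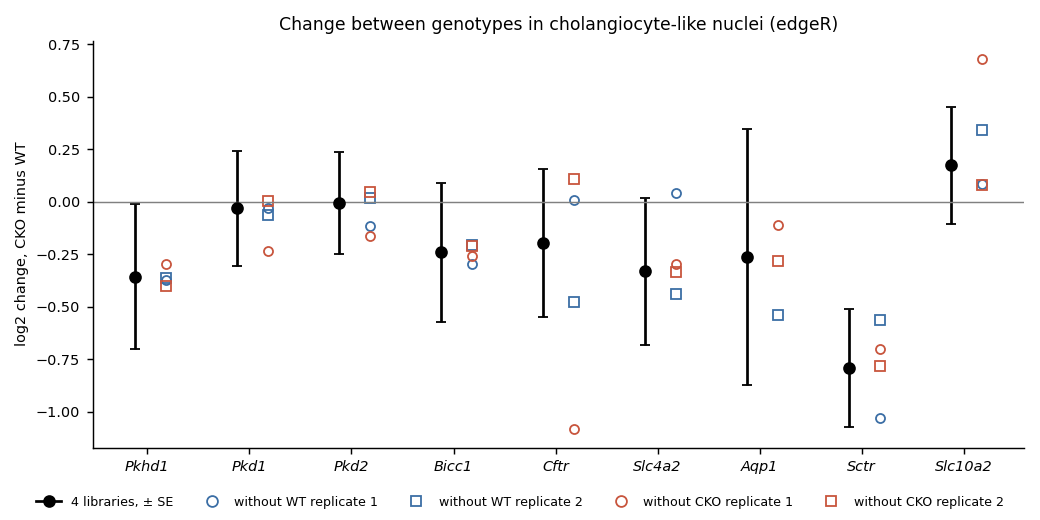
Log2 change, CKO minus WT, of each gene in cholangiocyte-like nuclei (vertical axis, edgeR). Black points with bars are the fit to 4 libraries ± SE, and open symbols the fit without 1 library. Sctr lies furthest from 0 at -0.79, and the open symbols of Cftr reach from -1.08 to 0.11. Aqp1 has no value without WT replicate 1, since it then failed the count filter.

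The wider lists were read the same way. Of 56 cilium genes tested in cholangiocyte-like nuclei 43 (76.8%) had a negative log2 change and 13 a positive one, with a median of -0.27, beside 52.8% negative and a median of -0.02 over all tested genes. None passed edgeR's test over all genes, and 5 had an unadjusted p under 0.05. Both CKO libraries were below both WT libraries for 15 of them (26.8%), against 21.2% of all genes. The 5 with the smallest p were Tmem216, a transition zone protein, with a log2 change of -2.24 (SE 0.63), Cys1, a cilium membrane protein of cystic disease (-0.87, SE 0.31), Ahi1 (-1.08, SE 0.42), Dync2h1, the heavy chain of the retrograde motor (-0.69, SE 0.29), and Ift74 (-0.73, SE 0.31). Their adjusted p values ran from 0.65 to 0.93. In CKO replicate 2 they rested on 0, 6, 1, 3 and 1 UMIs. Tmem216 (16.1, 16.6, 3.4 and 0 CPM) and Tmem237 met the filter on low counts only through the WT libraries, which partly fixed their negative sign. Ttbk2 met it only through the CKO libraries and had a change of 0.89. The signs of these genes are therefore no independent evidence. The lean was not particular to cholangiocyte-like nuclei. In hepatocyte-, endothelial-, mesenchymal- and macrophage-like nuclei 57.1%, 68.4%, 63.6% and 58.5% of the cilium genes tested were negative. Over all genes tested there the shares were 48.15%, 49.4%, 48.9% and 49.9%. In the same order, both CKO libraries lay below both WT libraries for 10.7%, 39.5%, 45.45% and 35.85% of the cilium genes. Of all genes tested 16.7%, 28.1%, 27.5% and 25.8% did so.

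Of 27 secretion genes tested, 15 (55.6%) had a negative and 12 a positive log2 change, with a median of -0.08, and none passed. Those with the smallest p were Car2 (-0.81, SE 0.33), Ano1 (-0.55, SE 0.28), Slc5a1 (-0.68, SE 0.36), Atp1b1, a subunit of the sodium pump (-0.46, SE 0.25), and the adenylyl cyclase Adcy3 (-0.99, SE 0.59). Only Car2 had an unadjusted p under 0.05 (0.0352, adjusted p = 0.90 by edgeR). Adcy3 met the filter on low counts only through the WT libraries (12.7, 15.1, 6.79 and 0 CPM), which partly fixed its sign.

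In the other classes 8 of the 9 genes passed the count filter (Sctr did not), and none passed edgeR's test there, as no gene did (0% called in each class and in whole libraries). Unadjusted p values under 0.05 numbered 237 in hepatocyte-, 529 in endothelial-, 653 in mesenchymal- and 640 in macrophage-like nuclei, and DESeq2 called 2, 2, 1 and 3 genes. Pkhd1 in mesenchymal-like nuclei came nearest, with 138, 119, 39.5 and 46.6 CPM and a log2 change of -1.51 (SE 0.28, adjusted p = 0.257 by edgeR). It passed in that class with no filter on low counts (adjusted p = 0.00388) and without CKO replicate 2 (-1.61, adjusted p = 3.13e-05). These levels were 0.547 to 1.44 times the free RNA estimate, which for Pkhd1 was itself 202, 82.6, 72.2 and 56.8 CPM. Pkhd1 was likewise lower in endothelial-like (-1.25, SE 0.36, adjusted p = 0.853) and hepatocyte-like nuclei (-0.93, SE 0.31), and the part of free RNA in these values was not tested. In endothelial-like nuclei it passed with no filter (adjusted p = 0.0221), without CKO replicate 1 (-2.60, 0.000268) and without CKO replicate 2 (-0.96, 0.0241).

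Aqp1 in endothelial-like nuclei, where it was well above the free RNA estimate, had 91.8 and 63.1 CPM in WT and 35.7 and 47.7 CPM in CKO libraries. The groups did not overlap, and the log2 change was -0.84 (SE 0.30, adjusted p = 0.941 by edgeR). Without CKO replicate 2 it was -1.03 and passed (adjusted p = 0.0191), a fit in which the lone CKO library is assumed to vary like the others. Bicc1 in mesenchymal-like nuclei, its other high class, averaged 755 ± 105 CPM in WT and 446 ± 244 CPM in CKO libraries, a log2 change of -0.59 (SE 0.36), and passed only without CKO replicate 1 (-1.23, adjusted p = 0.0374). In endothelial-, hepatocyte- and macrophage-like nuclei, where it stood at 1.17 times the free RNA estimate or less, the change was -0.98, -1.54 and -0.83. There too it passed only without CKO replicate 1 (-2.22, -2.52 and -3.54, adjusted p = 0.00164, 0.0237 and 0.0313). Pkd1 and Pkd2 in mesenchymal-like nuclei had log2 changes of -0.44 (SE 0.33) and 0.19 (SE 0.27), with overlapping groups.

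Both CKO libraries were below both WT libraries for 5 of 8 tested genes in endothelial-like and 5 of 8 in mesenchymal-like nuclei, for 2 of 8 in hepatocyte-like and for 3 of 8 in macrophage-like nuclei. The same held for 28.1%, 27.5%, 16.7% and 25.8% of all tested genes, and 6.63%, 9.64%, 7.55% and 6.46% lay above. Cftr, counted in mesenchymal-like nuclei, met the filter on low counts there only through the WT libraries (20.1, 25.7, 11.6 and 0 CPM). For 1 of the 8 genes both CKO libraries lay above both WT libraries in hepatocyte-like (Slc4a2) and in endothelial- and mesenchymal-like nuclei (Slc10a2). In macrophage-like nuclei this held for 0. The log2 changes of Slc10a2 in endothelial-, mesenchymal- and macrophage-like nuclei were 0.79 (SE 0.31), 0.53 (SE 0.34) and 0.71 (SE 0.33). Its levels there were 0.440 to 1.05 times the free RNA estimate. In the classes other than cholangiocyte-like nuclei TMM scaling raises log2 changes by 0.08 to 0.18 against plain CPM, and in whole libraries by 0.26. Over whole libraries Pkhd1 had 512, 222, 153 and 75.4 CPM and Sctr 22.1, 11.5, 5.92 and 0.897 CPM, with both CKO values below both WT values (3 of the 9 genes and 19.8% of all tested genes, while 3.37% lay above). In whole libraries the log2 changes were negative for 6 of the 9 genes and positive for Pkd1 (0.08), Slc4a2 (0.115) and Slc10a2 (0.18). The furthest from 0 were -1.36 (SE 0.45) for Pkhd1, -1.998 (SE 0.83) for Sctr, -1.30 (SE 0.62) for Bicc1 and -1.18 (SE 0.93) for Cftr. Each had an adjusted p of 0.9998 by edgeR. The share of UMIs from cholangiocyte-like nuclei was also lower in the CKO libraries (4.45% and 0.790% against 11.2% and 5.03%), and in whole libraries fewer such nuclei and less RNA per nucleus cannot be told apart.

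The genes most like each of 8 of the 9 genes (Aqp1 had too few UMIs in cholangiocyte-like nuclei) were ranked by Pearson's r of log2(CPM + 1) over 20 sums (5 classes in 4 libraries), among the 14155 genes with at least 100 UMIs. The points share libraries and classes, so r is a description. Closest to Pkhd1 was Prdm16 (0.97), followed by Ppil6, Gm609, Plch1 and Myo5c. Sctr was closest to Anxa13 (0.98), Cftr to Asz1 (0.97), Bicc1 to Itgb8 (0.97) and Pkd2 to Ptk7 (0.97). Asz1, a germ cell gene that lies beside Cftr on chromosome 6, had 191, 122, 139 and 97.0 CPM in cholangiocyte-like nuclei. Among the 9 themselves, Pkhd1 went with Sctr (0.92) and Cftr (0.86), Bicc1 with Pkd2 (0.88), and Aqp1 with none of these (-0.09 with Pkhd1). Pkd1 was closest to Unc5b (0.89) and Slc10a2 to Tgfa (0.90).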

How the data were processed

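Per the submitters' processing notes, the deposited counts were made with Cell Ranger 5.0.1 on mm10. They are raw UMI counts of 32285 genes and 7 added sequences, not normalised, in barcodes the authors kept. The rule for keeping barcodes, the counting of introns and the use of strand are not given in the sources used here. Barcodes had at least 500 genes. The highest Scrublet scores were removed (0.8% of a library per 1000 barcodes), leaving 39017 barcodes. Leiden clustering (scanpy 1.11.5, 2000 variable genes without the 9 members, 30 principal components, 15 neighbours, resolution 1) gave 22 clusters. Clusters were named where 3 or more markers of a class reached 1.5 times free RNA, and 20763 barcodes stayed unnamed. Names mean resemblance to markers. Clusters other than cholangiocyte-like ones often came mostly from 1 library.

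For each class, the counts of its nuclei were added up within a library. The fit on genotype used edgeR 4.0.16 in R 4.3.3, with filterByExpr, TMM scaling and the two-sided quasi-likelihood test, and a threshold of adjusted p under 0.05 over all genes tested. It was first tested on simulated data. SE is the size of the log2 change over the square root of F. With 2 libraries per group the depth of a class limits precision. Alternatives were DESeq2 1.42.0, RLE scaling, no filter, a replicate block, other clustering settings and leaving out each library, in which a lone library is assumed to vary like the other group's. Coordinates are from GENCODE M21 (GRCm38), which held 32235 of the gene identifiers. Named genes are the 9 members in every class, the 5 of each list with the smallest p in cholangiocyte-like nuclei and the genes most like each member; the other list genes given by level are examples chosen after their values were seen. The members and lists were chosen with earlier results of these data known. Some items of the lists are not reported here.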

Additional observations from a re-analysis of the deposited data

Results flagged for a closer look

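Slc4a2 values of the 2 genotypes lay apart in opposite directions in different classes, and no change passed edgeR's test. In hepatocyte-like nuclei both CKO libraries (27.7 and 28.8 CPM) were above both WT libraries (26.6 and 26.1 CPM), a log2 change of 0.182 (SE 0.218). In mesenchymal-like nuclei both CKO libraries (20.2 and 5.83 CPM) were below both WT libraries (21.6 and 21.0 CPM), a log2 change of -0.135 (SE 0.466), which ran from -0.15 to 0.062 without each library in turn. In macrophage-like nuclei the CKO libraries (15.4 and 13.3 CPM) were likewise below the WT ones (24.2 and 23.4 CPM), a log2 change of -0.475 (SE 0.324). The free RNA estimate of Slc4a2 was itself 20.3 and 18.7 CPM in WT and 14.8 and 15.5 CPM in CKO libraries, and the macrophage-like values were 0.855 to 1.25 times it, whose part was not tested. The difference between classes was not tested, 9 genes were looked at in 5 classes, and the mesenchymal-like value of CKO replicate 2 rests on 1 UMI.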

How the results depend on the processing

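Calls over all genes were 0 in each of the 6 comparisons with all 4 libraries (edgeR) and depended on the settings. In cholangiocyte-like nuclei they came to 2 with RLE size factors, 98 with no filter on low counts, 20 with the replicate number as a block, 17 without doublet removal, 24 at Leiden resolution 2, 2 in nuclei with UMIs of 3 of the 5 naming genes, 5 in the larger cluster alone (added after the data were seen), and 7 to 232 without each library in turn. In hepatocyte-like nuclei they were 2 with DESeq2 and 0 to 305 without each library, in endothelial-like nuclei 2 with DESeq2, 90 with no filter, 14 with the replicate block and 0 to 433, in mesenchymal-like nuclei 1, 148 with no filter and 25 to 343, in macrophage-like nuclei 3, 133 with no filter and 0 to 520, and in whole libraries 1 with DESeq2 and 0 otherwise. The highest counts came with a lone CKO library, and the cause was not tested. No label pairs the libraries, same-numbered libraries deviated together with correlations of 0.07 to 0.49 over genes, and the block changed no call of the 9 genes. In cholangiocyte-like nuclei none of the 9 was called under any alternative. There the log2 change reversed for Aqp1 with DESeq2 (0.11), for Pkd2 with RLE (0.004) and in the larger cluster (0.009), and for Pkd1 with at least 1000 genes per barcode (0.011) and in nuclei with 3 of 5 naming genes (0.011). Without each library in turn it ran from -1.08 to 0.11 for Cftr, -0.44 to 0.044 for Slc4a2, -0.16 to 0.045 for Pkd2 and -0.23 to 0.002 for Pkd1. The same ranges were -0.38 to 0.085 for Slc10a2 in hepatocyte-like nuclei, -0.98 to 0.03 for Pkd1, -0.32 to 0.37 for Pkd2 and -0.15 to 0.062 for Slc4a2 in mesenchymal-like nuclei, and -1.17 to 0.27 for Pkhd1 in macrophage-like nuclei. Mean levels in cholangiocyte-like nuclei moved by less than 1 SD in 80 of 81 alternatives. The exception was Pkd1, at 48.6 CPM in nuclei with 3 of 5 naming genes. The 81 include leaving out each library, which cannot move a mean by 1 SD of the same 4 values. That part of the count was fixed in advance, and only the other alternatives could show a shift. Without each library in turn (added after the data were seen), 40 to 42 cilium genes and 13 to 15 secretion genes were highest in cholangiocyte-like nuclei, and 12 to 19 and 6 to 8 were at least 2-fold above every other class. The depth limits CKO replicate 2, with 44 such nuclei.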

Other observations

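Mesothelial-like nuclei, the covering of the liver, were too few for the comparisons (49, 17, 12 and 22 nuclei) and also held Bicc1, at 1546, 1234, 1243 and 937 CPM, which was 8.36 to 24.2 times the free RNA estimate. Cftr had 15, 0, 4 and 4 UMIs there (114, 0, 116 and 66.9 CPM), where 3 UMIs would stand for 22.8, 84.1, 86.7 and 50.2 CPM.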
